A study of Homo sapiens with 6 samples.

Results

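The 7 genes HNRNPA2B1, HNRNPA1, HNRNPC, HNRNPDL, HNRNPH1, HNRNPH3 and HNRNPK encode heterogeneous nuclear ribonucleoproteins (hnRNPs). They were followed through the 488 splice junctions that lie, start and end, inside a window around each gene on its own strand of hg19, of 780566 junctions in the whole data set. HNRNPH3 was chosen by measured values of these same libraries, because one of its exons had the largest fall in inclusion among the called exons. Its values are therefore described below without any test, and the other 6 genes carry the tests.

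hnRNPs are abundant nuclear proteins that coat nascent RNA and steer splice site choice. HNRNPA1 and HNRNPA2B1 often act as repressors of exons, HNRNPC binds uridine runs and can compete with the U2AF complex at 3′ splice sites, HNRNPH1 and HNRNPH3 bind guanosine runs, HNRNPK binds cytidine runs, and HNRNPDL resembles the AU-rich element binding protein HNRNPD. Many hnRNP genes splice their own transcripts in alternative ways, so the isoforms and the amount of each protein both depend on splicing.

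The libraries were poly(A)+ RNA from K562, a human chronic myeloid leukaemia cell line with erythroid features, and each group held 3 of them. The control cells carried a U2AF1 wild type knock-in, and the other cells carried U2AF1 S34F. U2AF1 is the small subunit of U2AF and contacts the AG that ends the intron. The labels name no promoter, clone or culture for either genotype, and the S34F allele itself cannot be seen in junction counts; p-values therefore measure the spread between these libraries, which may be technical. The comparison asks which splice sites, exons and transcript levels of the hnRNP genes differ between the genotypes.

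The libraries held from 18074706 to 39279169 uniquely mapped spliced reads, and S34F replicate 3 was the deepest. K562 markers were present in all of them, with HBG2 at 908 to 2536 reads per 1000000 unique spliced reads of the library (RPM) and GATA1 at 98.0 to 149.7, while HBE1 was at 1282 RPM in S34F replicate 1 and at 43.7 to 180 in the other 5 libraries, and its part in the results was not tested. ALB had at most 4 reads and was at 0 in 3 libraries. CD3E, a T cell marker, reached at most 2.28 RPM, in wild-type replicate 1. Wild-type replicate 1 stood apart from its group. Over the 1932 junctions called in the series without it, its share lay a median 35.1% of the way from the mean of the other wild-type libraries to the S34F mean (quartiles 12.4% and 60.6%). The same measure lay between 0% and 20.05% for each of the other 5 libraries over the calls made without that library. Results below are therefore also given without wild-type replicate 1.

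A share is the percentage of the unique reads at a splice site that a junction takes. Shares at a 5′ splice site show which 3′ splice site was chosen, shares at a 3′ splice site show which 5′ splice site was chosen, and exon inclusion sets the mean of the junctions into and out of an exon against the junction that skips it. A junction or exon was called when its edgeR quasi-likelihood p, adjusted by Benjamini-Hochberg over all events of the series, was under 0.05 and the group means lay at least 10 percentage points apart. Odds below are the reads of a choice over the reads of its alternatives. At a site with a pair of junctions the shares are mirror images, so that one difference can be counted as a pair of calls.

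Within the 6 tested genes, the calls all lay in HNRNPA2B1. At 5′ splice sites 1 of 89 tested junctions was called, with 2.11% called in the whole series. At 3′ splice sites 2 of 98 were called, which are mirror images, with 0.934% called in the series. Of 45 cassette exons 1 was called, with 2.74% in the series. The median absolute difference was 0.26 percentage points at 5′ splice sites, 0.29 at 3′ splice sites and 0.50 for exons, beside 1.48, 1.43 and 1.75 over all events tested. In 15 other hnRNP genes, described below, it was 0.73, 0.56 and 0.89. In deeply read genes the filter admits junctions of very small share, which can differ by few points. HNRNPA1 had a median of 0.037 at 5′ splice sites. The part of read depth in these medians was not tested. By adjusted p alone, 6, 7 and 6 events passed (4.63%, 2.04% and 5.76% in the series), in HNRNPA2B1, HNRNPA1 and HNRNPDL. All 6 such exons, some of which overlap, had lower inclusion in S34F. In the series 761 of the 1110 exons that passed at this level were lower in S34F (3.95% of all tested), so that this was the usual direction. At an unadjusted edgeR p under 0.05 there were 17, 27 and 16 events in the 6 genes. The series share at that level is not given here for any method, so such counts cannot be read as many or few. DESeq2 called 0, 2 and 1 events, with 10, 19 and 13 at an unadjusted p under 0.05. In the whole series DESeq2 called 150, 183 and 265. Limma on log2 odds called 0 in each class, with 12, 17 and 9 at that level. It also called 0 in the whole series, so its 0 says nothing particular about these genes. Without wild-type replicate 1 the counts were 3 of 83, 5 of 96 and 5 of 41, where the series had 4.15%, 2.77% and 6.17%. The called events then lay in HNRNPA2B1 and HNRNPC. By adjusted p alone 17, 13 and 16 events passed without that library, where the series had 9.94%, 6.5% and 14.3%.

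**Figure D1:**
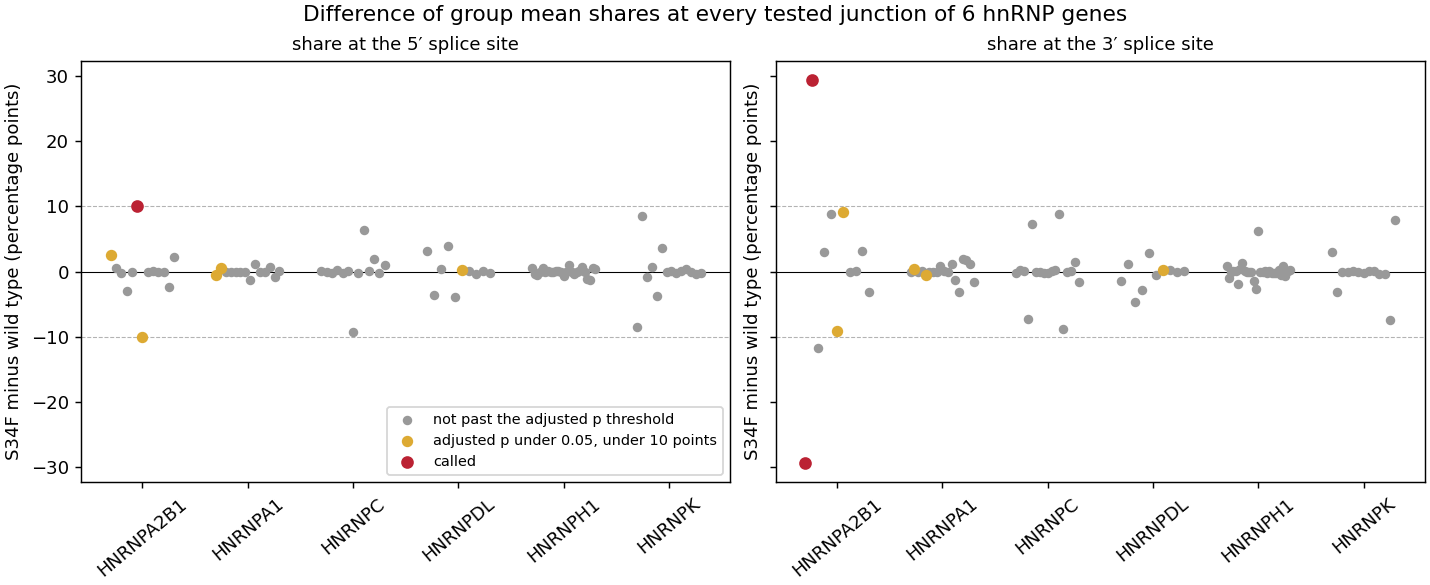
Difference of group mean shares (S34F minus wild type, percentage points) at every tested junction of 6 hnRNP genes, for shares at the 5′ splice site on the left and at the 3′ splice site on the right; dashed lines mark 10 points either way. Called junctions, in red, are in HNRNPA2B1, and most points lie near 0.

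HNRNPA2B1, on the minus strand of chromosome 7, encodes A2 and B1, RNA-binding proteins that differ by a 36 nt exon. The clearest difference between the groups was in a 136 nt exon (chr7:26230613-26230748) near the 3′ end of the gene, which was included less in S34F. Its inclusion was 84.8%, 88.8% and 88.5% in wild-type replicates 1 to 3 and 65.1%, 45.2% and 62.3% in S34F replicates 1 to 3. All S34F libraries lay below all wild-type libraries, and wild-type replicate 1 sat with its group. The means were 87.4% ± 2.24 and 57.5% ± 10.8 (SD, n = 3 each), and the call had an edgeR adjusted p of 0.0060 (log2 odds -2.33, SE 0.41).

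The junction that skips this exon (chr7:26230081-26232114) is not in the annotation used by the authors' aligner. It had 19, 17 and 11 reads in wild type and 45, 80 and 118 in S34F. Of the reads at its 3′ splice site it took 13.7%, 7.46% and 7.69% in wild type against 32.1%, 49.7% and 35.0% in S34F, which was called with an edgeR adjusted p of 0.0021 (log2 odds 2.61, SE 0.43). Reads at this 3′ splice site numbered 139 to 337 per library, so that the exon belongs to a minor part of the gene's transcripts. At the 5′ splice site upstream, with 1633 to 4950 reads per library, the skipping junction took 0.82%, 0.65% and 0.67% in wild type against 2.35%, 4.90% and 2.38% in S34F. That difference of 2.50 percentage points had an edgeR adjusted p of 0.0035 (0.0011 to 0.10 over the alternatives) but was under the minimum of 10 points. From the same 5′ splice site, the junction into the 136 nt exon took 3.95%, 2.26% and 2.24% in wild type against 3.80%, 3.12% and 3.43% in S34F, so that the groups overlapped. The junction out of the exon had 4.68, 8.46 and 6.81 RPM in wild type and 4.05, 4.43 and 5.58 in S34F, which overlap through wild-type replicate 1, while the skipping junction rose from at most 0.75 to at least 1.92.

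The call of the 136 nt exon held in 11 of 13 alternatives, with adjusted p-values from 0.00015 to 0.081. It was lost without S34F replicate 3 (edgeR adjusted p = 0.081) and with limma (0.067). Without wild-type replicate 1 the edgeR adjusted p was 0.00089. The skipping junction at its 3′ splice site was likewise lost without S34F replicate 3 (0.064) and with limma (0.11), in a range from 0.00018 to 0.11, and its mirror image also without S34F replicate 2 (0.054). Limma called 0 events in the whole series. At 3′ splice sites the series had 4 calls without S34F replicate 3 and 70 without S34F replicate 2, against 451 with all 6 libraries.

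HNRNPA2B1 also skipped a 120 nt exon (chr7:26233195-26233314) more often in S34F. The skipping junction (chr7:26232994-26235466, unannotated) had 148, 28 and 10 reads in wild type and 193, 177 and 537 in S34F. Its share at the 5′ splice site was 9.84%, 1.55% and 1.12% in wild type against 15.6%, 15.5% and 11.8% in S34F. The groups did not overlap, but wild-type replicate 1 was closer to the S34F libraries than to the other wild-type libraries, 67.6% of the way by exon inclusion. The group means were 4.17% ± 4.91 and 14.3% ± 2.16 (SD, n = 3 each), so that the junction was called at 10.1 percentage points with an edgeR adjusted p of 0.015 (log2 odds 2.32, SE 0.53). The mirror junction into the exon fell by 9.93 points, just under the minimum. Inclusion of the exon went from 90.4%, 98.5% and 99.0% to 86.1%, 85.4% and 87.9% (edgeR adjusted p = 0.027), where it fell by 9.53 points and was not called.

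This second call was lost in most fits with a single library left out. In the fits where it was lost, the series had 77 to 634 calls at 5′ splice sites, against 1088 with all 6 libraries. The edgeR adjusted p of the skipping junction was 0.073 without wild-type replicate 2, 0.075 without S34F replicate 1, 0.086 without S34F replicate 2 and 0.098 without S34F replicate 3. Without wild-type replicate 3 it was 0.039 with a difference of 8.57 points, so that the call was lost there too. Without wild-type replicate 1 it was 6.94e-07 and the difference grew to 12.9 points. With multi-mapped reads added the difference was 9.87 points, also under the minimum. DESeq2 gave 0.11 and limma 0.16, and over all 13 alternatives the range was 6.94e-07 to 0.16.

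Other choices of HNRNPA2B1 did not pass. The 36 nt B1 exon (chr7:26237451-26237486) was included at 21.0%, 23.0% and 21.2% in wild type against 23.8%, 24.0% and 25.7% in S34F. The groups were apart by 2.74 points, and the edgeR adjusted p was 0.70. A 229 nt exon (chr7:26231042-26231270) between the 136 nt exon and the rest of the gene was included at 6.12%, 18.1% and 15.9% in wild type against 2.67%, 3.77% and 5.56% in S34F, on 2 to 13 inclusion reads per library (edgeR adjusted p = 0.11, and 0.016 without wild-type replicate 1, in a range from 0.016 to 0.46 over the alternatives).

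**Figure D2:**
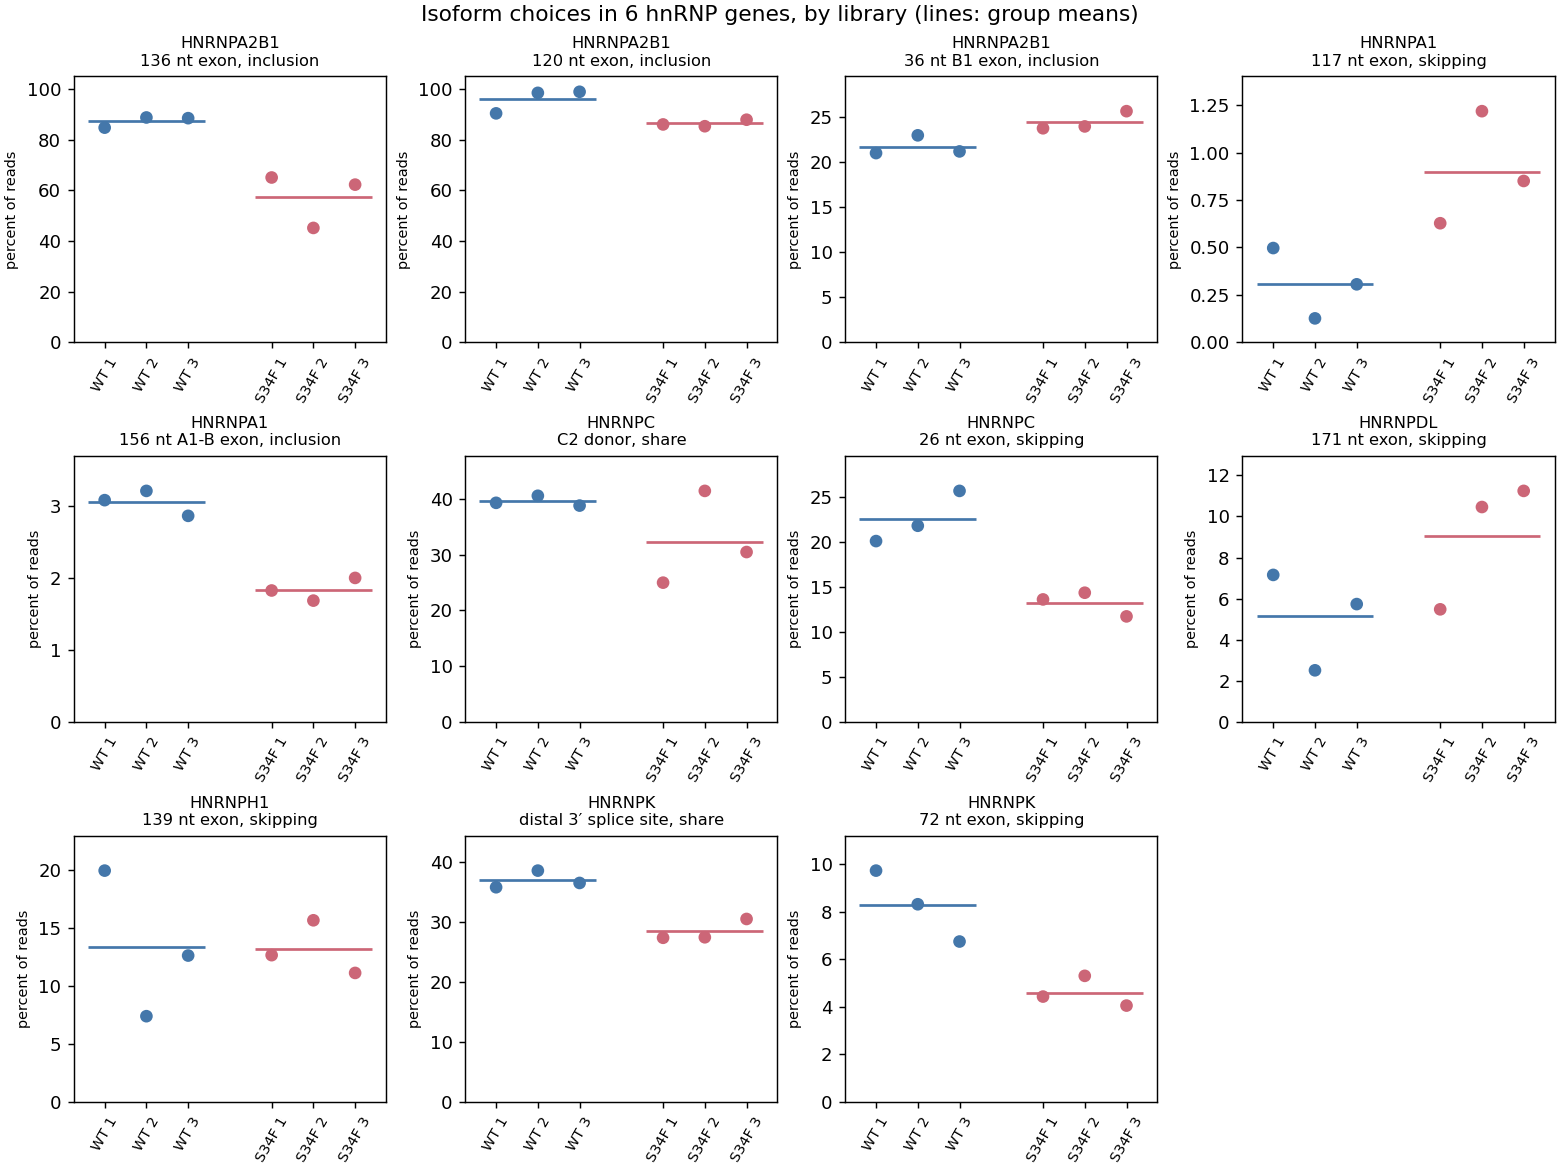
Percentage of reads for 11 isoform choices of 6 hnRNP genes in each library (y axis, from 0; blue wild type, red S34F; horizontal lines are group means). The 136 nt exon of HNRNPA2B1 falls from 84.8% or more in wild type to 65.1% or less in S34F, while the HNRNPH1 exon has overlapping groups.

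HNRNPA1, on the plus strand of chromosome 12, encodes a repressor of many exons. Its differences were small in percentage points. A 117 nt exon (chr12:54675170-54675286) was skipped by an unannotated junction with 40, 12 and 21 reads in wild type and 64, 89 and 151 in S34F. Those are 0.50%, 0.13% and 0.31% of the reads at the 5′ splice site against 0.63%, 1.22% and 0.85%, with all S34F libraries above all wild-type libraries. The edgeR adjusted p was 0.026 (log2 odds 1.59, SE 0.41; 0.0016 to 0.25 over 13 alternatives, 6 of them under 0.05). It passed 0.05 no longer without wild-type replicate 2 (0.13), S34F replicate 1 (0.055), S34F replicate 2 (0.14) or S34F replicate 3 (0.14). With a difference of 0.59 percentage points it was not called.

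A second junction of HNRNPA1, which skips a 71 nt exon (chr12:54680446-54680516) near the 3′ end, had 1, 0 and 0 reads in wild type and 3, 4 and 11 in S34F. Inclusion of this exon, counted against that skipping junction alone, stayed at 97.7% or more in every library. The edgeR adjusted p was 0.038, and 0.017 to 0.16 over 12 alternatives. It was 0.11, 0.098, 0.077 and 0.098 without wild-type replicates 2 and 3 and S34F replicates 1 and 2, and not tested without S34F replicate 3. On average the junction into the exon took only 2.38% of the reads at its 5′ splice site, so that most reads there went elsewhere. The exon that sets the longer isoform A1-B apart from A1 (chr12:54676863-54677018) was included at 3.08%, 3.21% and 2.86% in wild type against 1.83%, 1.69% and 2.00% in S34F. The groups were apart for A1-B, but the change of -0.75 in log2 odds (SE 0.32) had an edgeR adjusted p of 0.16. Of the spliced reads in HNRNPA1, 4.66% were multi-mapped and so not counted.

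HNRNPC, on the minus strand of chromosome 14, encodes C1 and C2, which bind uridine runs as a tetramer. From the 5′ splice site of its first exon, a junction that skips a 26 nt exon (chr14:21731470-21731495) and reaches chr14:21702389 took 20.1%, 21.8% and 25.7% in wild type against 13.6%, 14.4% and 11.7% in S34F. All S34F libraries were lower, with means of 22.5% ± 2.85 and 13.2% ± 1.35 (SD, n = 3 each). The edgeR adjusted p of 0.074 (log2 odds -0.93, SE 0.30) did not pass. Without wild-type replicate 1 it fell by 10.5 points and was called (edgeR adjusted p = 0.026), and over 13 alternatives the adjusted p ran from 0.026 to 0.67, with 2 under 0.05. Inclusion of the 26 nt exon was 79.9%, 78.2% and 74.5% in wild type against 86.4%, 85.3% and 88.1% in S34F (edgeR adjusted p = 0.089). A 272 nt form of it (chr14:21731470-21731741), set against the same skipping junction, had 67.5%, 65.0% and 60.1% against 77.1%, 75.2% and 79.5%. That form rose by 13.1 points without passing (edgeR adjusted p = 0.082, and 0.030 to 0.48 over 12 alternatives). Without wild-type replicate 1 both forms were called (edgeR adjusted p = 0.039 and 0.030).

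Smaller junctions from the same first exon of HNRNPC were higher in S34F without passing. The one to chr14:21731989 took 2.97%, 1.82% and 0.90% in wild type against 3.29%, 4.74% and 3.45% in S34F (edgeR adjusted p = 0.083, 0.0058 to 0.45 over the alternatives). The one to chr14:21736828 took 0.88%, 0.72% and 0.38% against 1.67%, 1.00% and 2.19% (edgeR adjusted p = 0.054, 0.015 to 0.36 over the alternatives). The C1 and C2 forms come from a pair of 5′ splice sites 39 nt apart. The C2 site (chr14:21699116) took 39.3%, 40.5% and 38.8% in wild type against 24.97%, 41.4% and 30.5% in S34F, which overlap through S34F replicate 2 (edgeR adjusted p = 0.50).

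HNRNPDL, on the minus strand of chromosome 4, encodes a nuclear protein related to HNRNPD. Its 171 nt exon (chr4:83347616-83347786) was skipped at 7.16%, 2.52% and 5.74% of the reads at the 5′ splice site in wild type and 5.48%, 10.5% and 11.2% in S34F. The groups overlapped, with S34F replicate 1 inside the wild-type range (edgeR adjusted p = 0.19; 0.040 without wild-type replicate 1, and 0.040 to 0.74 over the alternatives). An unannotated junction (chr4:83348718-83349430) had 0 reads in each wild-type library and 3, 3 and 7 in S34F. With the libraries of each group pooled, it took 0.27% of the S34F reads at its 5′ splice site (13 of 4785). In wild type, 0 of 4171 pooled reads allow a share of up to 0.072%. That limit is 3 reads over the total, and it holds counting error alone and not the spread between libraries. The edgeR adjusted p of this junction was 0.028 (0.028 to 0.23 over 12 alternatives, 5 of them under 0.05), and the difference of 0.28 points was not called. It was 0.091, 0.060, 0.062 and 0.076 without wild-type replicates 2 and 3 and S34F replicates 1 and 2, and not tested without S34F replicate 3.

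HNRNPH1, on the minus strand of chromosome 5, encodes the major guanosine-run binding hnRNP. It had 0 calls among 25 junctions at 5′ splice sites, 29 at 3′ splice sites and 12 exons, and 0 of each were under an unadjusted edgeR p of 0.05. DESeq2 and limma also called 0 there, and limma called 0 in the whole series. Without wild-type replicate 1, 2, 1 and 2 of these passed by adjusted p alone and 0 were called. Its largest difference in any junction was 6.20 percentage points. A 139 nt exon (chr5:179046270-179046408) was skipped by 19.9%, 7.38% and 12.6% of the reads at the 3′ splice site in wild type and 12.6%, 15.6% and 11.1% in S34F, which overlap. A pair of 5′ splice sites 41 nt apart had overlapping groups, with the upstream one (chr5:179050636) at 33.96%, 36.5% and 31.3% in wild type against 33.2%, 33.9% and 32.8% in S34F (edgeR adjusted p = 0.97). Multi-mapped reads made up 14.0% of the spliced reads in HNRNPH1, which has a close relative in HNRNPH2, and its counts are less certain than those of the other genes.

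HNRNPK, on the minus strand of chromosome 9, encodes the cytidine-run binding hnRNP. Its groups were apart at the choices below, none of which passed. In this gene 14 junctions at 5′ splice sites, 13 at 3′ splice sites and 3 exons were tested. How many junctions of the series have groups apart was not counted. Of a pair of 3′ splice sites 60 nt apart, the distal one (chr9:86584296) took 35.8%, 38.6% and 36.5% in wild type against 27.4%, 27.5% and 30.5% in S34F (edgeR adjusted p = 0.31, log2 odds -0.56, SE 0.30). A 72 nt exon (chr9:86588817-86588888) was skipped at 9.74%, 8.32% and 6.75% in wild type against 4.43%, 5.31% and 4.05% in S34F (edgeR adjusted p = 0.10, log2 odds -0.91, SE 0.33). At the 3′ splice site after the first exons, the 5′ splice site at chr9:86595417 took 45.0%, 44.2% and 42.0% in wild type against 50.3%, 53.3% and 51.6% in S34F (edgeR adjusted p = 0.49). Over the alternatives the lowest adjusted p-values of these choices were 0.22, 0.067 and 0.40.

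HNRNPH3, on the plus strand of chromosome 10, encodes a smaller relative of HNRNPH1. Its alternative exons are a 139 nt exon (chr10:70097615-70097753) and a second exon that starts at chr10:70098260 and has 3 forms of 140, 167 and 185 nt, set by 3 different 5′ splice sites. None of these lengths is a multiple of 3, but the 139 nt exon together with each form makes 279, 306 or 324 nt, all of which are.

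The 5′ splice site before these exons can join the 139 nt exon, pass it and join the second exon, or pass both (chr10:70097091-70098896, an annotated junction). The reads that passed both exons numbered 95, 10 and 5 in wild type against 116, 128 and 310 in S34F. They were 11.8% (95% Clopper-Pearson interval 9.63% to 14.2%), 1.21% (0.58% to 2.22%) and 0.96% (0.31% to 2.22%) of the reads at the site in wild type. In S34F they were 11.9% (9.96% to 14.1%), 17.7% (15.0% to 20.7%) and 14.0% (12.6% to 15.5%). The intervals hold counting error alone and not the spread between libraries. No molecular identifiers mark copies of one molecule, so that even the counting error may be larger than shown.

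Wild-type replicate 1 thus lay with S34F replicate 1 and far from the other wild-type libraries, 79.4% of the way to the S34F mean. That place lies above the upper quartile of 60.6% over the junctions called in the series without this library. The group means were 4.65% ± 6.17 and 14.5% ± 2.91 (SD, n = 3 each), which lie 9.90 percentage points apart, and 13.5 points with a mean of 1.08% over wild-type replicates 2 and 3. The part of wild-type replicate 1's standing apart in this result was not tested.

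**Figure D3:**
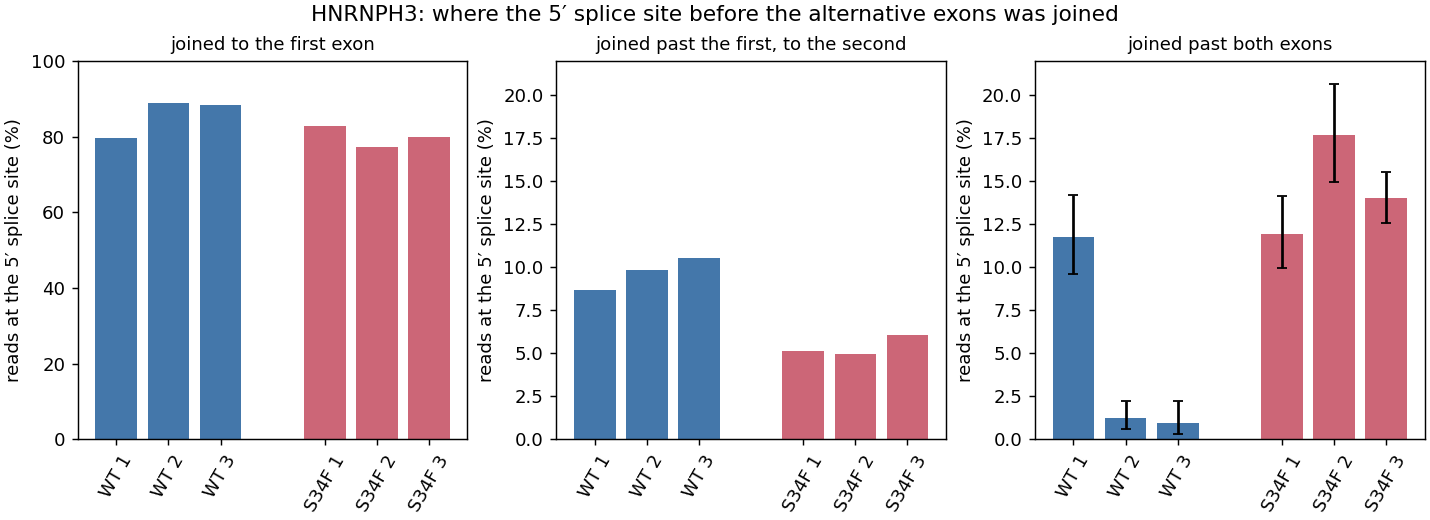
HNRNPH3 reads at the 5′ splice site before its alternative exons (y axis, percent of reads at the site) that join the first exon (139 nt), pass it to the second exon, or pass both, in each library; blue wild type, red S34F, bars on the right with 95% Clopper-Pearson intervals. Reads that pass both exons are at 1.21% or less in wild-type replicates 2 and 3 and from 11.8% to 17.7% in wild-type replicate 1 and the S34F libraries.

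The other exits of this splice site moved less. Junctions to the 139 nt exon took 79.6%, 89.0% and 88.3% in wild type against 82.8%, 77.3% and 79.9% in S34F, which overlap. Junctions that passed only the 139 nt exon took 8.67%, 9.82% and 10.5% in wild type against 5.14%, 4.97% and 6.06% in S34F, and here wild-type replicate 1 was with its own group. Among the forms of the second exon, the 140 nt form held 64.1% ± 3.58 of the reads leaving the exon in wild type and 64.0% ± 1.86 in S34F (SD, n = 3 each), and the 185 nt form held 34.9% ± 3.54 and 34.8% ± 1.58. The shares of the forms differed by less than the spread between libraries.

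The exon by which the gene was chosen is the 167 nt form, whose 5′ splice site is unannotated. Its inclusion, counted by its own junctions alone, was 29.1%, 82.1% and 85.3% in wild type against 21.1%, 13.5% and 19.9% in S34F. That form held only 1.04% of the reads leaving the exon in wild type and 1.13% in S34F, and its inclusion rested on 20 to 77 reads per library. Counted over all 3 forms and both routes into the exon, inclusion was 87.2%, 98.8% and 98.9% in wild type against 87.5%, 80.0% and 85.5% in S34F. The difference was then -10.7 percentage points, compared with -47.3 for the 167 nt form alone, and -14.6 points without wild-type replicate 1.

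Transcript levels were read from the unique spliced reads of each gene, in RPM, a measure that counts every junction of a gene. It cannot tell fewer transcripts in each cell from fewer cells that express the gene. HNRNPA1 stood at 3066, 3483 and 3259 RPM in wild type and 4145, 3713 and 4547 in S34F. All S34F libraries were higher, by 0.34 in log2 (2-sided exact permutation p = 0.1, the smallest that 3 against 3 libraries allow; adjusted p = 0.3 over the 6 tested genes). HNRNPC stood at 1096, 1182 and 1311 in wild type against 905, 999 and 986 in S34F, all lower, by -0.31 in log2 (exact permutation p = 0.1, adjusted p = 0.3).

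HNRNPH3 stood at 259, 281 and 220 RPM in wild type and 327, 308 and 468 in S34F. The groups did not overlap, the log2 difference was 0.52, and S34F replicate 3 was the highest library, without which the log2 difference was 0.33 (0.33 to 0.63 with each library left out). HNRNPA2B1, HNRNPDL, HNRNPH1 and HNRNPK had overlapping groups, with log2 differences from 0.03 to 0.09 (exact permutation p from 0.5 to 0.9, adjusted p = 0.9 for each). With TMM scaling the differences were 0.31 for HNRNPA1, -0.33 for HNRNPC and 0.49 for HNRNPH3, and these groups still did not overlap. Among 15 other hnRNP genes, described below, HNRNPLL was lower and RALY higher in all S34F libraries by RPM, and the rest overlapped. With TMM scaling HNRNPLL and HNRNPUL2 were lower in all S34F libraries and RALY overlapped. How many of all genes have groups apart was not counted.

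**Figure D4:**
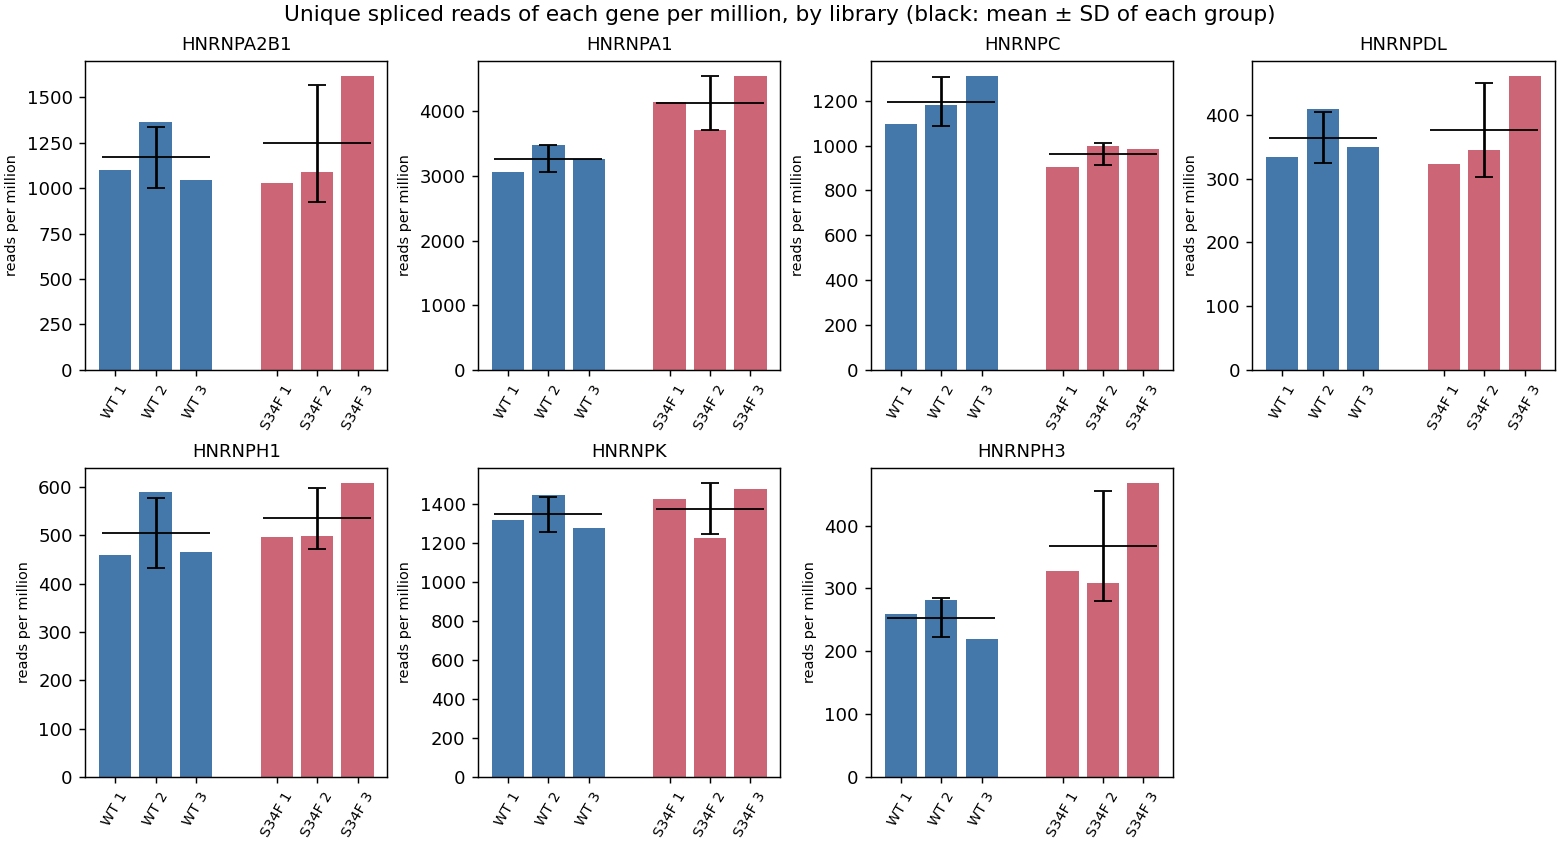
Unique spliced reads of each of 7 hnRNP genes (y axis, from 0, in RPM), in each library; blue wild type, red S34F, black lines mean ± SD of 3 libraries. HNRNPA1 and HNRNPH3 are higher and HNRNPC lower in all S34F libraries, and the other 4 genes overlap.

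The genes were ranked by the median RPM over their main annotated junctions, which does not grow with the number of introns. HNRNPA1 led with 319 to 483 over the 6 libraries, followed by HNRNPC with 98.0 to 133, HNRNPA2B1 with 77.5 to 118 and HNRNPK with 73.6 to 91.2. HNRNPDL had 49.0 to 68.5, HNRNPH1 31.5 to 41.3 and HNRNPH3 23.4 to 45.0. HNRNPA1 was above the other 6 genes in every library. The ranges of HNRNPC and HNRNPA2B1 overlapped, as did those of HNRNPA2B1 and HNRNPK and those of HNRNPH1 and HNRNPH3, while the other neighbours in this order did not overlap.

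The other 15 hnRNP genes examined (HNRNPA3, HNRNPAB, HNRNPD, HNRNPF, HNRNPH2, HNRNPL, HNRNPLL, HNRNPM, HNRNPR, HNRNPU, HNRNPUL1, HNRNPUL2, SYNCRIP, RALY and RBMX) had 0 calls among 120 junctions at 5′ splice sites, 149 at 3′ splice sites and 65 exons by edgeR, with 35, 29 and 18 at an unadjusted p under 0.05. DESeq2 and limma also called 0 in each class (12, 19 and 13, and 29, 21 and 18 at that level). Limma called 0 in the whole series, and the series share at an unadjusted p under 0.05 is not given here. Without wild-type replicate 1 the edgeR counts were 2 of 109, 2 of 136 and 1 of 54, all in HNRNPA3, where the series had 4.15%, 2.77% and 6.17%. There a 141 nt exon (chr2:178082433-178082573) was included at 86.1%, 94.2% and 96.0% in wild type against 83.4%, 82.8% and 83.6% in S34F (edgeR adjusted p = 0.065, and 0.0015 without wild-type replicate 1). By adjusted p alone, 3 junctions at 5′ splice sites passed, all higher in S34F (1 each in HNRNPU, SYNCRIP and RALY; 4.63% passed in the series), and 4 of the 65 exons did (5.76% in the series). The exons were 3 overlapping ones of HNRNPU, which rose by at most 5.78 points, and 1 of SYNCRIP, which fell by 0.935 points. These exons and that of HNRNPA3 were singled out after their values were seen.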

How the data were processed

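The deposited tables hold raw counts per splice junction of uniquely mapped and multi-mapped reads, 1 table per library, in STAR's junction format and in hg19 coordinates, per the submitters' processing notes; STAR's version and annotation are not given in the sources used here. Poly(A)+ RNA was sequenced as paired-end reads from TruSeq libraries, per the labels' protocols. No normalization by the authors is visible in the whole-number values.

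The tables were joined with Python 3.11.15 (pandas 2.3.3) and a missing junction was counted as 0. Each class of event was fitted over the whole series with edgeR 4.0.16 (R 4.3.3, limma 3.58.1): the reads of a choice and of its alternatives entered as a pair of counts, each library had its own intercept, and the quasi-likelihood F-test was run on the term by which S34F shifts that pair. Events needed 20 reads in every library and 10 on each side over the 6; cassette exons were at most 500 nt. The SE was taken as the coefficient over the root of F. Gene totals were compared by exact permutation on log2 values with 0.5 reads added. On simulated data the test kept the direction of nearly all changed events but passed few of them, so that an event that did not pass may still differ. Alternatives were DESeq2 1.42.0, limma on log2 odds, other filters, added multi-mapped reads and each library left out.

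The text names the 7 genes, their called events, known isoform choices and some of their most used alternative junctions (at most 6 per gene), and called events of 15 other hnRNP genes. The alternative junctions with the highest mean share in HNRNPH3, HNRNPDL, HNRNPH1 and HNRNPA2B1 are among those not described. Members and lists were chosen with earlier results of these data known. Windows for genes other than the 7 were set from general knowledge of hg19. Replicate numbers showed no sign of pairing the libraries: the correlations of deviations of same-numbered libraries were -0.09, -0.02 and -0.04. Whether the libraries were prepared in numbered pairs cannot be told from these values. Splice site sequences were not analysed here. A further marker of other cells is not reported here.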

Additional observations from a re-analysis of the deposited data

How the results depend on the processing

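Of the counts of called events in the 6 tested genes, the 1 junction at 5′ splice sites became 6 with no minimum difference and 0 with a minimum of 20 points, with DESeq2, with limma and with multi-mapped reads added; leaving out each library in turn gave 0 to 3. The 2 junctions at 3′ splice sites became 7 with no minimum difference and 0 with limma, and 0 to 5 with a library left out. The 1 exon became 6 with no minimum difference, 6 with no low-count filter (362 exons tested in place of 45) and 0 with limma, and 0 to 5 with a library left out. Of the fits with a library left out, the highest counts came without wild-type replicate 1. The count at 5′ splice sites was 0 without each of the other 5 libraries in turn. That at 3′ splice sites was 1 without S34F replicate 2 and 0 without S34F replicate 3, and that of exons was 0 without S34F replicate 3. Without each of these 5 libraries the series had fewer calls too, 77 to 634 at 5′ splice sites against 1088 with all 6 libraries. At 3′ splice sites it had 4 to 189 against 451. Limma called 0 in the whole series. The cause of the lost calls was not tested. Gene totals changed sign only with a library left out and only for genes whose groups overlap: the log2 difference ran from -0.13 to 0.19 for HNRNPA2B1, from -0.12 to 0.14 for HNRNPDL, from -0.011 to 0.20 for HNRNPH1 and from -0.025 to 0.11 for HNRNPK. The HNRNPH3 inclusion difference ran from -14.6 to -8.53 points with a library left out. With the replicate block the counts stayed at 1, 2 and 1. The gene totals also stayed at 0.34 for HNRNPA1 and -0.31 for HNRNPC, but this block cannot change a difference of group means. The replicate numbers showed no sign of pairing the libraries. Of the refits of single events whose adjusted p was under 0.05 with all 6 libraries, all kept the direction, 125 kept their side of the threshold and 117 no longer passed. Events that had not passed could change sign: the skipping of the HNRNPH1 139 nt exon went from -0.17 to 3.14 points without wild-type replicate 1. The called exon of HNRNPA2B1 rests on 11 to 118 skipping reads per library.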

Other observations

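The 5 cassette exons whose inclusion followed that of the HNRNPH3 second exon most closely over the 6 libraries had Pearson correlations of 0.988 to 0.995, out of 2052 exons with a range of at least 20 percentage points. This is a description over 6 libraries that include wild-type replicate 1, and the exons were picked for the likeness. They are a 109 nt exon (chr7:112102325-112102433), a 42 nt exon (chr1:76255701-76255742), a 116 nt exon (chr12:46764295-46764410), a 205 nt exon (chr6:37348926-37349130) and a 169 nt exon (chr3:44492806-44492974), and their genes were not named here. The 205 nt exon was included at 71.1%, 87.4% and 93.7% in wild type against 71.4%, 59.7% and 68.4% in S34F. In each of the 5 exons, wild-type replicate 1 lay below the other wild-type libraries, as in HNRNPH3, which follows from the way they were picked.

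Among the choices described in these genes, the place of wild-type replicate 1 between the other wild-type libraries (0%) and the S34F mean (100%) was not uniform. It was 79.4% for the HNRNPH3 exons, 67.6% for the 120 nt exon of HNRNPA2B1, 61.4% for the 171 nt exon of HNRNPDL, 41.1% for the 117 nt exon of HNRNPA1 and 34.7% for the HNRNPC first-exon junction. It was 19.2% for the distal 3′ splice site of HNRNPK, 12.5% for the 136 nt exon of HNRNPA2B1, 5.21% for the C2 donor and -3.73% for the A1-B exon. It was -45.4% for the B1 exon of HNRNPA2B1 and -74.9% for the 72 nt exon of HNRNPK, on the far side of the other wild-type libraries from S34F. For the 139 nt exon of HNRNPH1, whose groups overlap, it was 316%.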
